A study of Homo sapiens with 6 samples.

Results

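The genes described here are 287 protein-coding genes of chromosome 20 whose mean over 6 RNA-seq libraries reached 1 FPKM, a read count scaled by gene length and library size. The deposited table places 543 protein-coding genes on this chromosome, of which 304 reached that mean and 17 of these were left out by name, PCNA and SRC among them. The members were chosen by their mean FPKM over both groups, and the chromosome was proposed with the direction of its difference already known. Its counts and medians are therefore given as a description, with no test over the set. The libraries came from HEK293, an established line of human embryonic kidney origin, made to express stably a form of tensin 2 (TNS2, a focal adhesion adaptor) in which a tyrosine became either glutamate (Y483E) or phenylalanine (Y483F). There were 3 libraries of each, no untreated or wild-type group among the samples used here, and nothing in the labels on whether a form was carried by 1 clone or several. A difference between cell lines and an effect of the amino acid cannot be told apart.

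Chromosome 20 is a small chromosome with a gene-rich long arm. It carries no single pathway: its genes include core spliceosome and nucleolar proteins, spindle regulators, vesicle-traffic proteins and chromatin regulators. In cancers and in many cultured human lines, gains of the long arm are common, and the genes of a gained or lost stretch change copy number together. DNA was not measured in these samples, so copy number and transcription per copy cannot be told apart. In bulk RNA, fewer cells expressing a gene and less RNA per cell also cannot be told apart.

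Total reads, recovered from FPKM as described under processing, were between 17204498 and 23284592 per library. TNS2 itself had 0.753, 1.04 and 1.05 FPKM in Y483E and 1.07, 1.16 and 1.16 in Y483F. Its reads include any from the construct, so it does not verify which form a library carries. Of 6 markers of HEK293 cells, IRS4, NEFL, INA and VIM had at least 25.7 FPKM in every library, while PAX2 reached at most 1.34 and NEFM 0.314. Markers of blood (PTPRC, CD3E) were at 0 reads in every library, those of liver (ALB, APOA1) and endothelium (PECAM1, CDH5) had at most 0.0762 FPKM, and among fibroblast genes COL1A1 reached 0.776. The titles call the replicates biological without naming separate cultures, so a p-value here reflects the spread among these libraries, which may be technical. The replicate 1 libraries carry the number 1 in the authors' tables, and replicates 2 and 3 the numbers 4 and 5.

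Chromosome 20 genes were lower in Y483E on both arms by a small amount. On the short arm 78 of 97 members had a lower mean log2(FPKM + 1) in Y483E, with a median log2 fold change of -0.096, and on the long arm 153 of 190 did, with a median of -0.088. As a ratio of group means in FPKM, the median member stood at -7.46% on the short arm and -6.48% on the long arm. Over all 12833 genes at or above that mean, 47.2% were lower in Y483E and the median was 0.0070. The boundary between the arms was set at 28 Mb, in the stretch without members between ZNF337, which ends at 25696841, and HM13, which starts at 31514410.

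The difference separated the libraries. For each library the median deviation of the members from the 6-library mean of log2(FPKM + 1) was taken. For the short arm it was -0.032, -0.063 and -0.050 in Y483E replicates 1, 2 and 3, and 0.048, 0.029 and 0.051 in Y483F. On the long arm the same medians were -0.027, -0.056 and -0.039, and then 0.037, 0.019 and 0.046. All 3 Y483E libraries lay below all 3 Y483F libraries on both arms. The other 12546 genes lay between -0.018 and 0.0076 in the 6 libraries, and their lowest value was that of Y483F replicate 2. Reads of the members made up 2.16%, 2.14% and 2.15% of each Y483E library and 2.31%, 2.30% and 2.32% of each Y483F library, again without overlap.

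**Figure D1:**
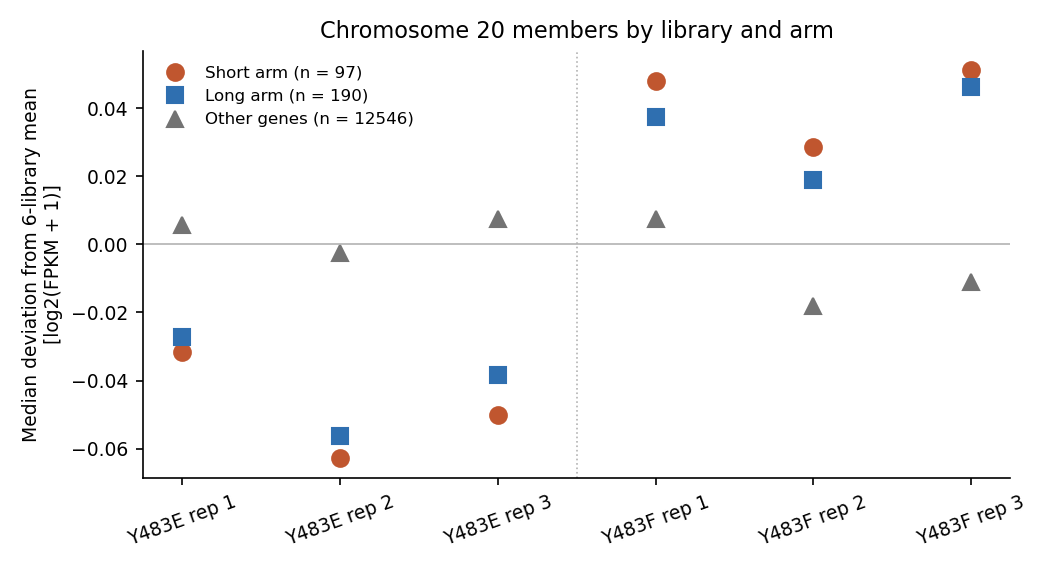
Median deviation of short-arm members, long-arm members and all other tested genes from each gene's 6-library mean, in log2(FPKM + 1), by library. Both arms sit at -0.027 or lower in the Y483E libraries and at 0.019 or higher in the Y483F libraries, while the other genes stay between -0.018 and 0.0076.

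Member by member, every Y483E library lay below every Y483F library for 89 of the 287 genes, 31 on the short arm and 58 on the long arm, which is 31.0% of members against 7.37% of all genes tested. The opposite order, every Y483E library above, was seen for 7 members, against 9.72% of all genes. Those 7 were SNPH and PET117 on the short arm and SCAND1, BCAS4, PMEPA1, PPDPF and RGS19 on the long arm. By size, 86 members had a group mean at least 10% lower in Y483E, against 15.3% of all genes, and 8 had one at least 10% higher, against 14.7%. The remaining 193 lay within 10% in either direction. The ratios of group means ran from -51.7% for SPATA25, the only member with a difference of more than 2-fold, to 21.7% for NKX2-2. SPATA25, which is among the 89, is a member only through its Y483F mean, so its low value is tied to how it was chosen.

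**Figure D2:**
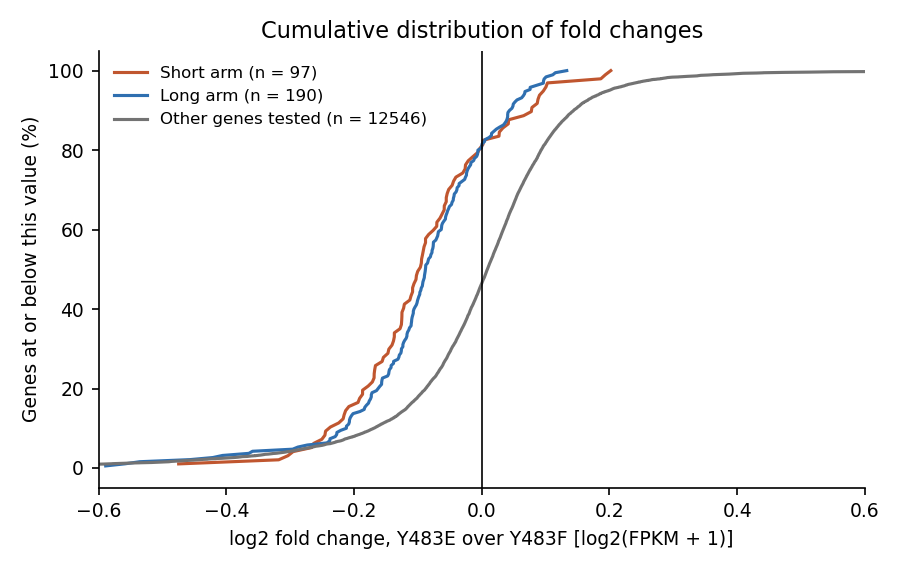
Cumulative percentage of genes at or below each log2 fold change, Y483E over Y483F, on the log2(FPKM + 1) scale, for short-arm members, long-arm members and the other tested genes (values beyond 0.6 in either direction are outside the axis). The curves of the 2 arms run together to the left of the curve of other genes, and 80.4% of short-arm and 80.5% of long-arm members lie below 0, against 46.4% of other genes.

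Single genes were tested with limma on log2(FPKM + 1) over all 12833 genes. None of the members passed a Benjamini-Hochberg adjusted p of 0.05, as none of all genes did (0%), and the smallest adjusted p among members was 0.257. At an unadjusted p under 0.05 limma gave 69 members, all 69 lower in Y483E, where 5.7% of all genes reached this and were lower. The quasi-likelihood test of edgeR on the recovered reads also called 0 members, where 0.0438% of 15992 genes were called, 0.0313% lower and 0.0125% higher. It gave 87 members at an unadjusted p under 0.05, all lower, against 13.4% of genes in either direction. DESeq2 on the same reads called 7 members lower and none higher, where 0.946% of genes were called, 0.51% lower and 0.435% higher. It gave 66 members at an unadjusted p under 0.05, against 5.29% of the 31210 genes it gave a p, most of them below 1 FPKM, and 11.1% of those at or above it. The authors' deposited table lists 66 of the members, all 66 with a lower value in Y483E, and gives the same 7 an adjusted p under 0.05. The log2 fold changes of that table and of DESeq2 here come from the same reads and are not separate evidence.

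Among the 7, NOP56 is the most abundant. It encodes a core protein of the box C/D particles that guide ribosomal RNA methylation (ENSG00000101361, chromosome 20, 2652145 to 2658393, plus strand, as in GENCODE 29 on GRCh38). NOP56 had 103, 102 and 94.4 FPKM in Y483E and 115, 126 and 127 in Y483F, so that the groups did not overlap. The log2 fold change was -0.30 ± 0.057 (SE) in limma with an adjusted p of 0.257, and DESeq2 gave an adjusted p of 0.000449. The gene hosts MIR1292 and several small nucleolar RNAs within its span, whose reads may have been counted at either gene.

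ZNF334 is a zinc finger gene of the long arm (46499630 to 46513559, minus strand). Its values were 2.00, 2.18 and 2.17 FPKM in Y483E and 3.20, 3.10 and 3.09 in Y483F. Replicates of each line lay close together. The log2 fold change in edgeR was -0.57 ± 0.087 (SE derived from its test statistic, adjusted p 0.0529), just outside the threshold. DESeq2 gave an adjusted p of 0.0014. STX16, a syntaxin of the trans-Golgi network (58651253 to 58679526, plus strand), had 14.5, 14.9 and 15.4 FPKM in the Y483E libraries against 17.0, 19.6 and 18.8, with a DESeq2 adjusted p of 0.0106. It overlaps the read-through gene STX16-NPEPL1 on the same strand, so its count is uncertain.

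MCM8, a helicase of homologous recombination, had 10.4, 8.98 and 8.90 FPKM in Y483E and 11.6, 11.5 and 11.3 in Y483F (DESeq2 adjusted p 0.0335). Its Y483E replicate 1 was closer to the Y483F values than the other 2 libraries were, and MCM8-AS1 lies on the opposite strand within its span. The splicing factor SRSF6 showed the same order, with 70.8, 61.0 and 55.6 FPKM in Y483E and 72.5, 76.0 and 77.5 in Y483F (DESeq2 adjusted p 0.0497). ACSS1, a mitochondrial enzyme that makes acetyl-CoA from acetate, had 6.25, 6.94 and 6.78 FPKM against 7.66, 8.46 and 8.09, at the same DESeq2 adjusted p of 0.0497. C20orf204 had the largest difference of the 7, with 1.49, 1.63 and 1.26 FPKM against 2.08, 2.97 and 2.68 (DESeq2 adjusted p 0.00134). It rests on 127 to 299 reads per library.

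**Figure D3:**
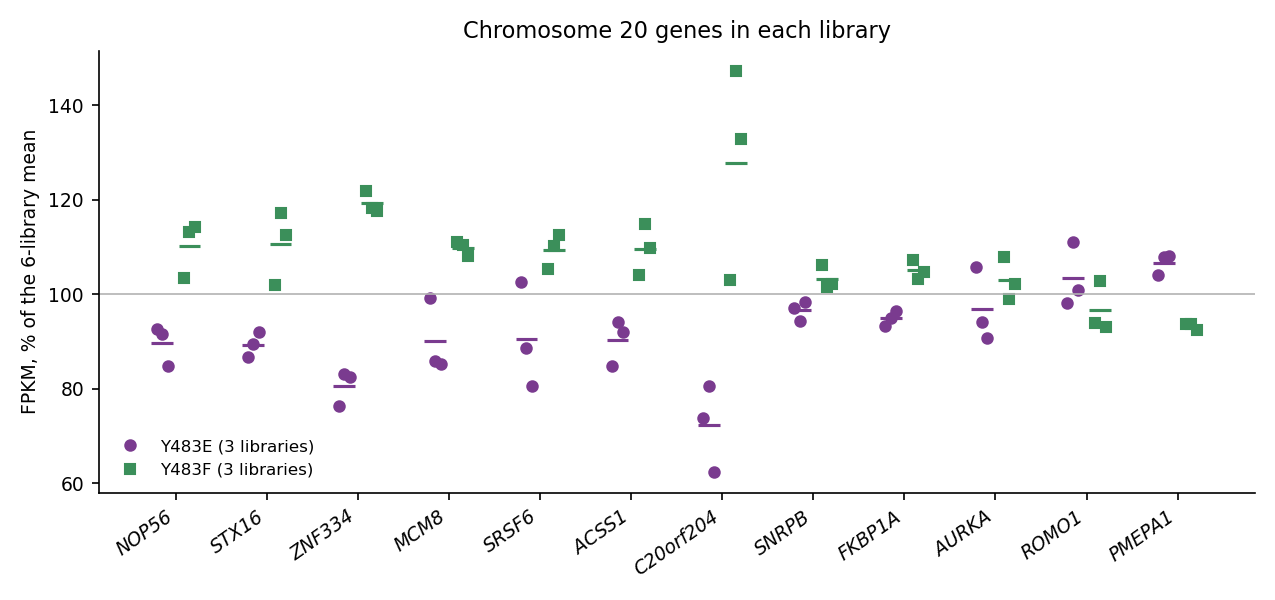
FPKM of 12 members in each library as a percentage of that gene's 6-library mean, with circles for Y483E, squares for Y483F and short lines for group means. The first 7 genes are those called by DESeq2, SNRPB and FKBP1A show smaller separations, AURKA overlaps, and ROMO1 (with overlap) and PMEPA1 have higher means in Y483E.

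The lowest log2 fold changes on the short arm were those of GNRH2, NINL, NAPB, NOP56, CRLS1 and MCM8. NAPB, a SNARE adaptor, had 3.79, 3.85 and 3.48 FPKM in Y483E and 4.40, 5.09 and 4.97 in Y483F. CRLS1, which makes the mitochondrial lipid cardiolipin, had 6.58, 6.11 and 5.55 against 8.02, 7.61 and 6.90. Neither pair of groups overlapped, with limma adjusted p-values of 0.257 and 0.308. In contrast the groups overlapped for GNRH2, a releasing hormone at 2.04, 0.938 and 1.25 FPKM against 1.28, 3.11 and 2.81, and for the centrosomal gene NINL. The value of GNRH2, -0.47, was -0.74 without Y483F replicate 1 and -0.31 without Y483F replicate 2.

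On the long arm the lowest were SPATA25, PABPC1L, C20orf204, ID1, LPIN3 and ZNF334. Of these SPATA25 is a member only through Y483F, the line in which it was higher. ID1, an inhibitor of helix-loop-helix transcription factors and a known target of bone morphogenetic protein signals, had 21.4, 7.34 and 7.31 FPKM in Y483E and 19.7, 13.6 and 12.3 in Y483F. The replicate 1 libraries of both lines held its highest values, and limma gave -0.46 ± 0.39 (SE, adjusted p 0.661). The value was -0.93 without Y483E replicate 1, -0.22 without Y483E replicate 2 or 3, and -0.27 without Y483F replicate 1. PABPC1L, a poly(A)-binding protein known from oocytes, had 7.42, 7.90 and 5.4 FPKM against 6.70, 13.8 and 12.4, so Y483F replicate 1 lay below 2 of the Y483E libraries. Without that library its fold change moved from -0.56 to -0.85. It overlaps TOMM34 on the other strand, which had 44.1, 40.7 and 42.8 FPKM in Y483E and 46.8, 42.4 and 41.9 in Y483F. LPIN3, a phosphatidate phosphatase, also overlaps a gene on the other strand, EMILIN3, and their fold changes had opposite signs (-0.42 and 0.10). Whether the reads kept their strand is unknown, since the protocol describes libraries of both kinds.

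At the other end, the highest fold changes were 0.20 for LZTS3, 0.19 for NKX2-2, 0.19 for PET117 and 0.10 for SNPH on the short arm. On the long arm PMEPA1, BCAS4 and EMILIN3 were among the highest, at 0.13, 0.11 and 0.10. Several of these rest on 1 library. Without Y483F replicate 1 the value was 0.018 for NKX2-2 and 0.093 for LZTS3, without Y483F replicate 3 it was 0.062 for PET117, and without Y483F replicate 2 it was 0.048 for EMILIN3. PMEPA1, an inhibitor of transforming growth factor signalling, had 2.31, 2.39 and 2.39 FPKM in Y483E and 2.08, 2.08 and 2.05 in Y483F. Its groups were well apart, yet limma gave it an adjusted p of 0.433. LZTS3 had 5.78, 7.39 and 6.78 FPKM against 4.70, 5.98 and 6.31, with overlap. None of these genes was called by limma, edgeR or DESeq2 over 6 libraries.

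Members were also described by function, in 10 lists of chromosome 20 genes that covered 170 of them. Members were lower in Y483E in most of every list. Of all members 80.5% were lower, so a majority in a list is no trait of that list. Whether any list differed from the other members was not tested. Of 26 genes of RNA processing and translation, 24 were lower, with a median log2 fold change of -0.099 and LSM14B and PCIF1 as the exceptions. SNRPB, a core protein of spliceosomal particles and the most abundant member, had 292, 284 and 296 FPKM in Y483E and 320, 306 and 307 in Y483F, without overlap (limma adjusted p 0.433). EIF2S2, a subunit of the initiation factor that brings the first tRNA, had 96.8, 108 and 101 against 112, 98.0 and 96.3, with overlap.

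Cell cycle and DNA replication genes were lower in 16 of 17 cases, with a median of -0.090, and only RBL1, a relative of the retinoblastoma protein, was higher. The microtubule plus-end protein MAPRE1 had 99.6, 93.3 and 95.7 FPKM in Y483E and 113, 95.7 and 103 in Y483F. CSE1L, which returns importin to the cytoplasm, had 145, 137 and 139 against 160, 144 and 147. In both genes the lines overlapped slightly. For MYBL2, a cell cycle transcription factor at 173, 186 and 196 against 183, 188 and 193 FPKM, the groups overlapped widely (log2 fold change -0.023 ± 0.055, SE).

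In the list of transcription and chromatin genes 27 of 33 were lower, with a median of -0.11. Between the replicate 1 libraries 20 were lower (median -0.040), and in replicates 2 and 3 the number was 29 (median -0.12). In both comparisons 16 were lower, or 48.5%, against 61.0% of all members. SOX12 had 19.5, 18.4 and 18.5 FPKM in Y483E and 21.4, 20.1 and 21.6 in Y483F, and PLAGL2 had 16.7, 16.7 and 16.2 against 18.4, 18.2 and 17.8. Neither gene's groups overlapped, whereas in ZNF512B, at 30.6, 31.8 and 30.1 against 31.3, 39.1 and 38.4, Y483F replicate 1 fell among the Y483E libraries. The 6 higher members were CEBPB, GMEB2, TCEA2, ZNF217, SOX18 and ZBTB46, of which GMEB2 turned lower under TMM and median-of-ratios scaling.

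Of 28 secretory and vesicle-traffic genes 24 were lower (median -0.091). DPM1, a subunit of the enzyme that supplies mannose for glycosylation, had 51.9, 55.4 and 52.1 FPKM in Y483E and 62.5, 58.4 and 59.2 in Y483F. RPN2, a subunit of the oligosaccharyltransferase, had 104, 101 and 108 against 116, 103 and 104. CHMP4B of the ESCRT-III membrane-cutting machinery had 60.9, 58.5 and 58.2 against 64.6, 63.3 and 58.0. The values of RPN2 and CHMP4B overlapped between the lines and those of DPM1 did not.

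Mitochondrial genes were lower in 11 of 13 cases (median -0.10), ROMO1 and PET117 being the exceptions. IDH3B, a subunit of the citric acid cycle enzyme isocitrate dehydrogenase, had 61.3, 57.7 and 58.8 FPKM in Y483E and 66.9, 63.9 and 65.6 in Y483F. ROMO1, a small inner-membrane protein, had 112, 126 and 114 against 107, 117 and 106. It shares its start region with NFS1 on the other strand, where the fold change was -0.10, and the spans of these genes overlap.

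Signalling genes were lower in 17 of 19 cases (median -0.11). The phosphatase PTPN1, which acts on the insulin receptor, had 28.6, 26.7 and 28 FPKM in Y483E and 32.5, 29.5 and 32.6 in Y483F, without overlap. YWHAB, a 14-3-3 adaptor, had 50.8, 47.6 and 49.1 against 57.9, 50.5 and 50.7. GNAS, the stimulatory G protein subunit, was one of the 2 higher members, at 64.1, 69.1 and 69.0 against 65.1, 64.3 and 67.1. Its log2 fold change was 0.041 ± 0.045 (SE).

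The remaining lists were smaller. Ubiquitin and folding genes were lower in 8 of 10 cases (median -0.090), and in this list FKBP1A, the target of rapamycin and tacrolimus, had 104, 106 and 107 FPKM in Y483E and 119, 115 and 117 in Y483F. DDRGK1 was at 61.0, 65.7 and 60.2 against 63.5, 69.5 and 66.8, and ADRM1, the proteasome's ubiquitin receptor, at 67.6, 62.4 and 62.1 against 63.3, 63.0 and 65.0. The sign of ADRM1 (0.0052) turned under TMM, median-of-ratios and quantile scaling. Cytoskeletal and centrosomal genes were lower in 7 of 8 cases (median -0.11), among them the actin-depolymerizing protein DSTN at 35.7, 32.8 and 34.4 against 43.5, 35.9 and 38.4, without overlap. DYNLRB1 and KIF3B, motor subunits, had fold changes of -0.057 and -0.092 with overlapping groups.

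Of 10 genes in the list of membrane transporters, 4 reached the level, and these were lower with a median of -0.13. The list does not hold every solute carrier of the chromosome. SLC23A2, a vitamin C transporter, had 12.2, 12 and 13.3 FPKM in Y483E and 13.8, 13.4 and 14 in Y483F. SLCO4A1, an organic anion transporter, had 9.98, 9.65 and 10.2 against 10.7, 12.7 and 12.2, and SLC9A8, a sodium-proton exchanger, had 3.82, 3.49 and 3.49 against 3.93, 4.27 and 3.86. In these 3 the groups did not overlap. Enzymes of small-molecule metabolism had the median nearest to 0, -0.051, with 10 of 12 lower. AHCY, which clears S-adenosylhomocysteine, had 99.99, 96.7 and 97.9 FPKM against 107, 96.5 and 102. ITPA and PYGB had log2 fold changes of -0.14 and -0.014, with overlap. Of the 117 members in no list, 83 were lower.

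Along the chromosome the lower values were spread over the whole length. In windows of 5 Mb the share of members lower in Y483E ran from 60% to 100%, and each window had a median below 0. Between 0 and 5 Mb 33 of 43 members were lower (median -0.096), with FAM110A, SNPH, EBF4, UBOX5, LZTS3, C20orf194, ATRN, SMOX, PRNP and RASSF2 higher. Between 5 and 20 Mb only SHLD1, PET117 and SEC23B were higher. The stretch from 5 to 10 Mb had 11 of 12 lower, that from 10 to 15 Mb 6 of 6, and that from 15 to 20 Mb 12 of 14, with medians of -0.11, -0.11 and -0.14. The longest run of neighbouring members with lower values held 20 genes, from CHGB to MGME1. Runs were counted over members only, passing over genes outside the set. With 80.5% of members lower, long runs arise whether or not neighbours are linked, which was not tested.

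The window from 20 to 25 Mb had the median nearest to 0, at -0.026 with 9 of 15 members lower. Its higher members were the transcription factors INSM1, NKX2-2 and FOXA2, the export factor NXT1, the protease inhibitor CST3, and SYNDIG1. FOXA2 turned lower under TMM and median-of-ratios scaling, as did PRNP, PDRG1, RBL1, GMEB2 and ADRM1 elsewhere, and no member turned higher under these. Quantile scaling turned the sign of 9 members. Of these 4 turned lower (PRNP, PDRG1, RAB5IF and ADRM1), and NKX2-4, SNX21, ZSWIM3, TMEM189 and TFAP2C turned higher. All 7 members from 25 Mb to the arm boundary were lower (median -0.19), although between the replicates 1 their median was -0.0034.

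On the long arm, the window from 30 to 35 Mb had 26 of 31 members lower, with PDRG1, COMMD7, PXMP4 and TP53INP2 among the higher. From 35 to 40 Mb 27 of 35 were lower, with ERGIC3, ROMO1, SCAND1, EPB41L1, RAB5IF, SOGA1, RBL1 and MANBAL higher. Between 40 and 50 Mb 20 of 22 and then 29 of 32 were lower, with EMILIN3, PKIG, ACOT8, PCIF1 and SPATA2 as the exceptions, at medians of -0.092 and -0.11. A run of 18 lower neighbours there went from ZNF335 to SLC9A8. From 50 to 55 Mb 9 of 13 were lower (CEBPB, BCAS4, KCNG1 and ZNF217 higher, median -0.043), and from 55 to 60 Mb 15 of 18 were (PMEPA1, GNAS and PPP1R3D higher, median -0.095).

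The last window, from 60 to 65 Mb, had 27 of 39 members lower at a median of -0.056. Its higher members were LSM14B, ADRM1, GID8, PPDPF, HELZ2, GMEB2, SLC2A4RG, ZBTB46, DNAJC5, SOX18, TCEA2 and RGS19. Between the replicate 1 libraries alone the median of this window was 0.026, and in replicates 2 and 3 it was -0.088. Its transcripts had the highest GC content of all windows, with a median of 60.6%. All genes named in these accounts of windows beyond those of the stated rule were named after their values were seen.

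**Figure D4:**
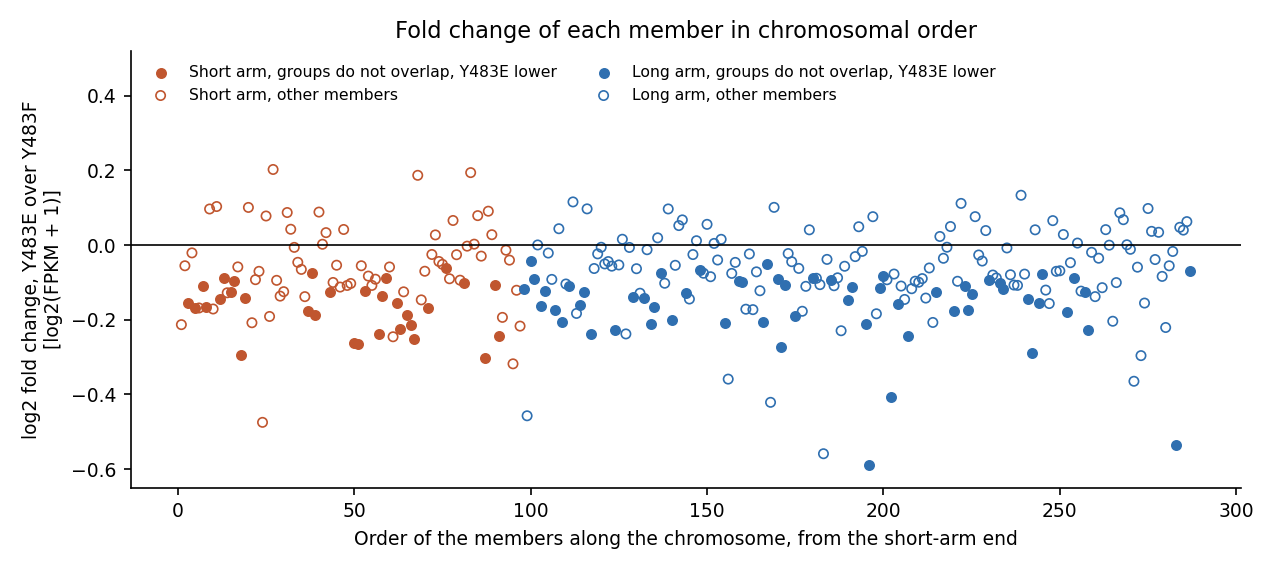
Log2 fold change of each of the 287 members, Y483E over Y483F on the log2(FPKM + 1) scale, in order along the chromosome, with filled points where every Y483E library lay below every Y483F library. Filled points occur along both arms, 31 on the short and 58 on the long, and the members above 0 are scattered among them with no run longer than 3. With 80.5% of members below 0, runs above 0 would be short whether or not neighbours are linked.

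The members were also split into 3 sets by the GC content of their transcripts. Among the 96 members with the lowest GC, up to 49.6%, 89 were lower, against 46.2% of other genes in that range. In the middle set 79 of 95 were lower, against 43.5%, and among the 96 above 56.9% GC 63 were, against 49.4%. The median log2 fold changes from the low to the high set were -0.099, -0.10 and -0.051, with only the high set nearer to 0. Between the replicates 1 these medians were -0.13, -0.086 and -0.026, and in replicates 2 and 3 they were -0.084, -0.093 and -0.069. Among other genes the difference between the replicate 1 libraries also moved with GC, with medians of -0.026 in the low range and 0.041 in the high range. In replicates 2 and 3 those medians were 0.028 and -0.013. The part of GC content in the members' values was not tested. Split by mean FPKM into 3 sets, at 5.66 and 17.2 FPKM, members were lower in 72.9%, 87.4% and 81.2% of cases from the lowest set to the highest, with medians of -0.085, -0.10 and -0.082. Other genes in the same ranges were lower in 51.6%, 45.3% and 37.5% of cases, with medians of -0.0048, 0.010 and 0.026.

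The replicate 1 libraries and replicates 2 and 3 share no library. The chromosome was proposed with its direction in these data known, so agreement between the 2 comparisons is a description. The comparison of replicates 1 sets 1 library against 1. Between the replicates 1 the median of the members was -0.083, with 215 of 287 lower (51.5% of all genes), and between replicates 2 and 3 it was -0.086, with 221 lower (45.4% of all genes). In both comparisons 175 members were lower, or 61.0%, against 24.3% of all genes, and 26 were higher in both. Of the members below -0.5 in replicates 2 and 3, GNRH2, ID1, NNAT, PABPC1L, RTEL1-TNFRSF6B and ZGPAT were higher in Y483E between the replicates 1, and SPATA25, LPIN3 and C20orf204 were lower in both. SPATA25, NNAT and RTEL1-TNFRSF6B are members only through their Y483F means. The values of GNRH2 were 0.42 between the replicates 1 and -0.92 in replicates 2 and 3. NOP56 was lower in both, at -0.16 and -0.36, as was STX16 at -0.22 and -0.32.

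**Figure D5:**
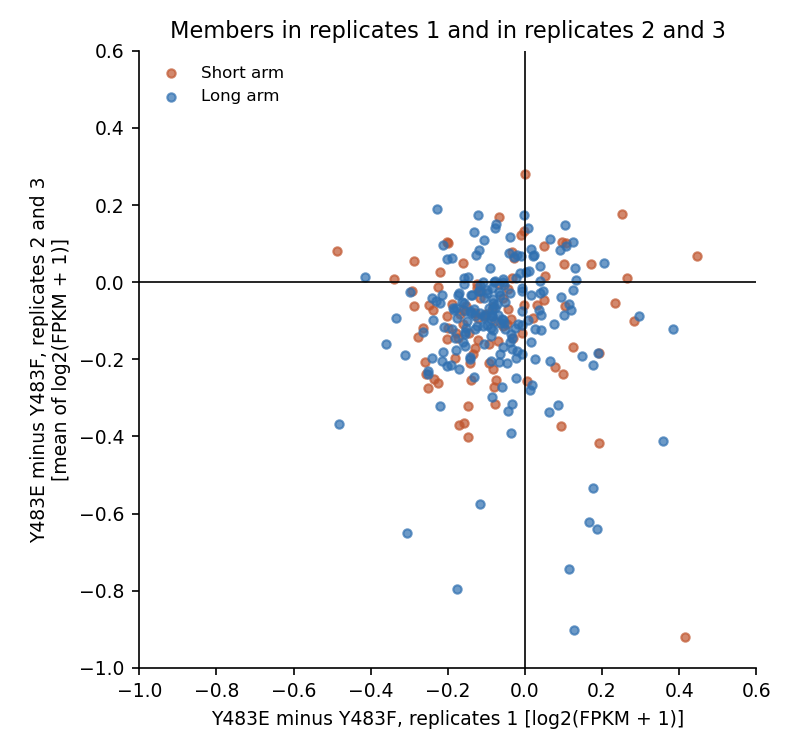
Difference of each member between Y483E and Y483F in replicates 1 (horizontal axis) and in replicates 2 and 3 (vertical axis), both in log2(FPKM + 1), coloured by arm. Of 287 points 175 lie to the lower left, lower in Y483E in both, and 26 lie in the upper right.

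In replicates 2 and 3 alone, edgeR called 69 members lower in Y483E and 1 (CST3) higher, where 7.98% of genes were called lower and 7.07% higher. By arm, 26 of the lower calls were on the short and 43 on the long arm. The corresponding limma fit called 26 members lower and 0 higher, against 3.01% of genes called lower. Calls depended on the library left out: edgeR called 36 members lower without Y483F replicate 1 (4.27% of genes), 5 without Y483E replicate 1 (0.324%), and 0 without any 1 of the other 4. Those 5 were NOP56, MCM8, ID1, SRSF6 and ZNF334. Limma with array weights, which lets libraries count unequally, called 73 members, all lower, against 7.39% of genes called lower. The median on the short arm was -0.078 without Y483F replicate 1 and -0.11 without Y483F replicate 2. Every Y483E library lay below every Y483F library for 131 and 122 members, respectively. Fewer libraries have to be ordered there than for the 89 members over 6 libraries. The same counts over all genes were not taken, so the rise cannot be judged.

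Pairs of members that start head to head show how close neighbours compare. There were 11 pairs on opposite strands whose gene starts lay within 1000 bases, or overlapped by up to 200. Both genes were lower in 7 pairs, both were higher in 1 (SOX18 and TCEA2), and the signs differed in 3 (NFS1 and ROMO1, ACOT8 and ZSWIM3, DIDO1 and GID8). Of all members 80.5% were lower, so pairs lower together are common whether or not neighbours are linked, which was not tested. The bases between the starts of 3 pairs are printed below because they hold the shared start region of neighbours that were lower together (the first and second) or had opposite signs (the third). They are RefSeq sequence of GRCh38.p14, plus strand. Capitals mark matches on either strand to the GC box, spelled GGGCGG. They also mark matches to the CCAAT box, spelled as its name. A search for the letters TATAAA found none in them.
TRMT6 to MCM8, chr20:5950559-5950651: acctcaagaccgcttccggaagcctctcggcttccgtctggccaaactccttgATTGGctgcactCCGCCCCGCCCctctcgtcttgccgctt
AURKA to CSTF1, chr20:56392338-56392370: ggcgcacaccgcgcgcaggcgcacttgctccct
ACOT8 to ZSWIM3, chr20:45857407-45857616: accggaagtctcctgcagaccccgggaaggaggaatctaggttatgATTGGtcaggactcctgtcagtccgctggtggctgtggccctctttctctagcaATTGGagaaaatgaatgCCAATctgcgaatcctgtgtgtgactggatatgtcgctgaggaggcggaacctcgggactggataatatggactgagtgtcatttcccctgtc

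The first interval, 93 bases, holds 2 overlapping GC boxes and 1 CCAAT box. TRMT6, a subunit of a tRNA methyltransferase, had a log2 fold change of -0.10 ± 0.062 (SE) beside the -0.26 ± 0.063 of MCM8. The second, 33 bases with none of the 3 motifs, separates the mitotic kinase AURKA (-0.088 ± 0.065) from CSTF1, a subunit of the factor that guides cleavage before polyadenylation (-0.10 ± 0.048). AURKA had 42.8, 38.0 and 36.6 FPKM in Y483E and 43.6, 40.0 and 41.3 in Y483F. The third, 210 bases, holds 3 CCAAT boxes and lies between ACOT8, a peroxisomal thioesterase (0.049 ± 0.070), and ZSWIM3 (-0.017 ± 0.11), neither of them distinguishable from 0. Under quantile scaling ZSWIM3 turned higher, so the opposite signs of this pair depend on the scaling. RefSeq promoters of 300 bases were matched by symbol for 229 members. A GC box was in 69.9% of them, in 69.5% of those of lower and 71.4% of those of higher members, against 44.6% of all 27305 promoters. A CCAAT box was in 31.9% (30.5% of lower and 38.1% of higher members), against 35.7% of all. TATAAA was in 4.8%, against 12% of all, with 5.88% among the 187 lower and 0% among the 42 higher members. The 27305 promoters were not limited by expression as the members were. Promoters of expressed genes on other chromosomes were not compared, so these contrasts cannot be read as a trait of chromosome 20.

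Other transcripts of the chromosome were set beside the members. Of the 17 protein-coding genes left out by name 11 were lower, with a median of -0.057. Over 6 libraries edgeR called 2 of these 17 and DESeq2 called 3, against 0.0438% and 0.946% of all genes they tested. The 0 members called by edgeR is therefore not a count for the whole chromosome. Of 45 genes of other biotypes at a mean of at least 1 FPKM, 36 were lower with a median of -0.28, but their library medians were -0.021 in Y483F replicate 1 and 0.19 and 0.18 in the other 2, and 10 of them are small RNA genes that poly-A selection largely misses. Without those 10, 26 of 35 were lower (median -0.18). The 160 protein-coding genes above 0 but below 1 FPKM took 0.0114%, 0.0128% and 0.0120% of the reads in Y483E and 0.0116%, 0.0151% and 0.0149% in Y483F, with Y483F replicate 1 among the Y483E libraries. Members that overlap no other gene of the table were lower in 87 of 106 cases, with a median of -0.093.

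Among 23 chromosomes with at least 50 tested protein-coding genes, chromosome 20 had the second lowest median, -0.089 with its 17 left-out genes included. Chromosome 21 was lowest at -0.13 (97 of 106 genes lower), chromosome 13 followed chromosome 20 at -0.052 (144 of 199), and the next, chromosome 22, was at -0.017. Chromosome 18 lay at the other end at 0.12. Between the replicates 1 and between replicates 2 and 3 the medians were -0.12 and -0.15 for chromosome 21 and -0.080 and -0.026 for chromosome 13. These orders are descriptions of the same 6 libraries, and the differences between the chromosomes were not tested.

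The level limit touched few members. Just inside it were RTEL1-TNFRSF6B, a read-through gene that shares exons with its neighbours and is uncertain, at a mean of 1.15 FPKM, ANKEF1 at 1.16 and NNAT at 1.18. Just outside were DZANK1 at 0.9995, OVOL2 at 0.981 and NPEPL1 at 0.967. In 3 members, SPATA25, NNAT and RTEL1-TNFRSF6B, only the Y483F mean reached 1 FPKM, so they are members through the line in which they were higher. In 278 members every library was at 1 FPKM or more, and 270 had at least 100 reads in every library.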

How the data were processed

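RNA of 6 HEK293 libraries was selected with poly-T beads, per the labels' protocols. The submitters' processing notes name featureCounts 1.5.0-p3, HISAT2 2.0.5, DESeq, DESeq2 and StringTie 1.3.3b without their roles. They name no build. The coordinates of all 287 members equal those of GENCODE 29 on GRCh38. Per the file headers, the authors deposited FPKM and gene lengths for 58735 genes, and for 1652 genes counts, size-factor-scaled count signal, log2 fold changes and p-values of Y483E over Y483F.

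Multiplying FPKM by gene length and a library total gave whole reads within 0.01 for 100% of values above 0. The median member had 986 reads per library, and few reads limit the precision of low genes. The main test was limma 3.58.1 (trend) on log2(FPKM + 1), two-sided, over genes averaging 1 FPKM or more, threshold adjusted p 0.05. edgeR 4.0.16 and DESeq2 1.42.0 ran on recovered reads. On simulated counts of Y483E against Y483F with 200 genes changed 2-fold, limma recovered 185 (12871 genes run), edgeR 190 (16027) and DESeq2 183 (58735). False calls were 15, 10 and 5, and smaller folds were not simulated. The simulation gave every gene the same preset dispersion (relative spread between libraries) and no difference between replicate numbers. It therefore does not give the power of the tests in these libraries. GC content is the median over the GENCODE transcripts of a gene.

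The members and lists were chosen with earlier results of these data known. Named were TNS2, the 6 lowest and 4 highest members of each arm, the 3 most abundant of each list, members called by edgeR, DESeq2 or the authors, and the 3 nearest to the level limit; all others were named after their values were seen. A gene that the rule names is not reported here. Alternatives covered pseudocounts, filters, scalings, a replicate block, weights, tools and left-out libraries. Same-numbered libraries deviated together with correlations of 0.056, 0.14 and -0.095, so the numbers were not treated as pairs.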

Additional observations from a re-analysis of the deposited data

How the results depend on the processing

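Over 6 libraries limma called 0 members as reported, with pseudocounts of 0.1 and 0.5, and with no filter or one at 5 FPKM. It also called 0 under the 3 scalings, without any 1 library and with the replicate number as a block. In this balanced design the block cannot change a fold change, so the count of lower members was bound to stay the same. Limma called 73 with array weights and 26 in libraries numbered 4 and 5. DESeq2 called 7, and edgeR called 0, against 70 in libraries numbered 4 and 5 and 0 to 36 without 1 library. The cause of these differences was not tested. The short-arm median was -0.11 with a pseudocount of 0.1, -0.12 in edgeR and -0.11 in DESeq2, and between -0.11 and -0.078 without 1 library, and the long-arm median was -0.11 in edgeR. Every Y483E library lay below every Y483F library for 101 to 135 members without 1 library and for 169 in libraries numbered 4 and 5. Fewer libraries have to be ordered there, and the same counts over all genes were not taken. Among the 106 members that overlap no other gene, a smaller set chosen after seeing the data, the count over 6 libraries was 37. That is 34.9%, against 7.37% of all genes tested. In that smaller set 27 members were lower on the short arm and 60 on the long arm. The sign of ADRM1 turned to -0.0057 with TMM, -0.0051 with median-of-ratios, -0.011 with quantile scaling, -0.036 with array weights, -0.0021 in edgeR and -0.039 in libraries numbered 4 and 5. Array weights turned EMILIN3 to -0.022 and EIF2S2 to 0.086. Libraries numbered 4 and 5 gave 0.097 for EIF2S2, 0.0041 for MYBL2, 0.014 for RPN2 and 0.0070 for ANKEF1. Without 1 library ADRM1 ran from -0.034 to 0.026, MYBL2 from -0.064 to 0.023, EIF2S2 from -0.047 to 0.063, RPN2 from -0.073 to 0.013, TOMM34 from -0.068 to 0.011 and PYGB from -0.030 to 0.0050. The other genes named by the rule kept their sign in every alternative fitted over more than 1 library per line. The 3 scalings moved the median of all genes to between -0.0024 and 0.011.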
